A study of Arabidopsis thaliana with 10 samples.

Results

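GH9C2, GH9B8 and TBL36 are 3 Arabidopsis thaliana genes whose products act on the cell wall, followed here through the release of cultured cells from a block of DNA replication. They were chosen by gene symbol, with their course over these same arrays already known, out of 13356 genes with a probe set naming that gene alone, and each had 1 such probe set. All 3 passed the filter on mean signal that left 13647 probe sets for testing. Because their course was known when they were chosen, their values are given as a description, and no test on them is used as evidence.

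The samples came from MM2d, a dark-grown suspension line of fast-dividing Arabidopsis cells. Early stationary cells, 7 days after subculture, were diluted into fresh medium with 4.16 µg/ml aphidicolin, an inhibitor of replicative DNA polymerases, and held for 24 h at 27 °C, then freed of the drug by washing over a net of nylon mesh and a gentle spin. Samples were taken at 0, 2, 4, 6, 8, 10, 12, 14, 16 and 19 h after release, the 0 h sample directly after the wash, and all 10 shared the same line, drug block and wash. Each time had 1 ATH1 array, a short-oligonucleotide microarray read as a brightness per probe set, and no replicate. No array of cells that had not been blocked was part of the course.

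Plant cells are enclosed by a wall in which cellulose microfibrils are embedded in hemicelluloses and pectins, and the wall must be loosened and extended as cells enlarge and rebuilt as they divide. Glycoside hydrolase family 9 (GH9) holds the plant endoglucanases, which cut internal glucan bonds. Its class A members are anchored in the membrane and include KORRIGAN, which takes part in cellulose synthesis, class B members are secreted, and class C members carry an additional carbohydrate-binding module. The TRICHOME BIREFRINGENCE-LIKE (TBL) family consists of plant proteins of which several add acetyl groups to wall polysaccharides such as xylan, xyloglucan and mannan.

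All 3 genes followed a course with the same outline: an intermediate signal at 0 h, the 2 lowest signals at 2 h and 4 h, a higher signal by 6 h and the highest signal at 19 h. GH9C2 (AT1G64390), a class C endoglucanase, had signals of 274, 141, 138, 278, 275, 324, 384, 400.3, 588 and 939.5 at 0, 2, 4, 6, 8, 10, 12, 14, 16 and 19 h. The highest value was thus 6.80-fold above its lowest, a range of 2.76 on the log2 scale, and 19 h stood apart from every other time. GH9B8 (AT2G32990), a class B endoglucanase, had signals of 51.6, 19.6, 23.7, 49.4, 36.2, 54.7, 65.8, 72.9, 94.3 and 102 at the same times. Its range was 5.18-fold or 2.37 log2 units, or 3.3-fold and 1.72 log2 units where a pseudocount of 16 took the place of the floor of 12.1 set for low signals. TBL36 (AT3G54260), a member of the TBL family, had signals of 756, 327, 275.5, 702, 899, 1049, 899.7, 906, 999.9 and 1362. Its range was 4.94-fold or 2.31 log2 units, and from 8 h to 16 h it stayed between 899 and 1049. The median range of all tested probe sets was 0.90 log2 units. The time course test (limma, moderated F test on a spline of time with 4 degrees of freedom, Benjamini-Hochberg adjustment) called 5.57% of all tested probe sets. It called GH9C2 and TBL36 and not GH9B8, which is no support for the pattern since the genes were chosen on it.

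**Figure D1:**
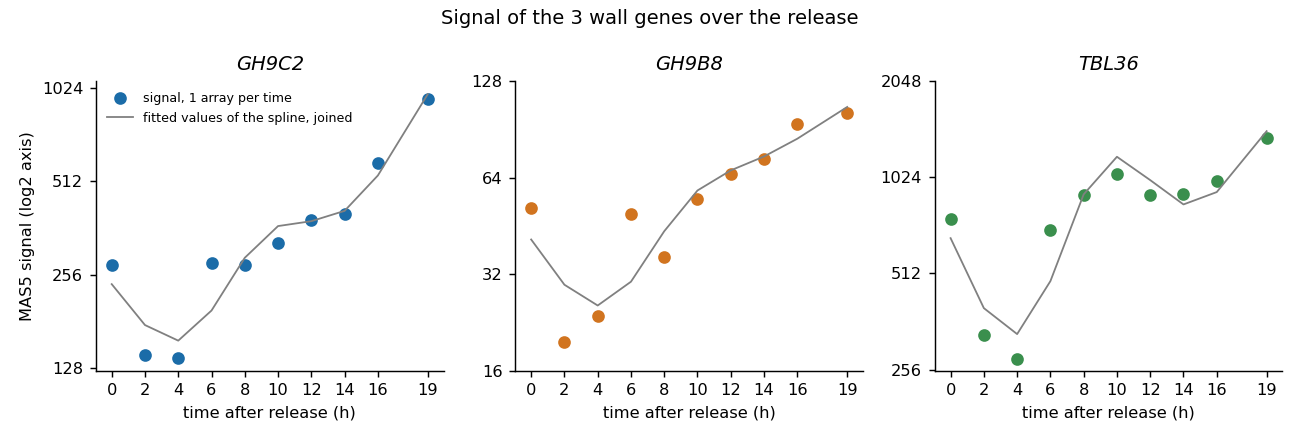
Signal of GH9C2, GH9B8 and TBL36 (vertical axes, MAS5 signal on a log2 axis with its own range in each panel) against hours after release. Points are single arrays and the grey line joins the fitted values of the spline at the 10 times. In each panel the points at 2 h and 4 h are the lowest and the point at 19 h is the highest, and the point at 6 h lies above the line.

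With no replicates, the spread of each gene around its spline was the available measure of scatter: a residual SD of 0.31 log2 units for GH9C2, 0.47 for GH9B8 and 0.34 for TBL36. When the 10 signals of GH9C2 were put in order, 6 of the 9 gaps between neighbours were smaller than that spread. The gaps above it set the 2 h and 4 h values below the rest, 16 h above 14 h, and 19 h above 16 h. In GH9B8, 8 of 9 gaps were smaller than the spread, and the exception, 0.61 log2 units, lay between 2 h and 4 h and the other times. In TBL36, 7 of 9 were smaller, and the exceptions set the 2 h and 4 h values below the rest and 19 h above 10 h, its next highest time. Between 6 h and 14 h, no neighbours in the order differed by more than that spread in any of the 3 genes. Some consecutive times did, with differences of 0.59 log2 units from 8 h to 10 h in GH9B8 and 0.36 from 6 h to 8 h in TBL36. At 6 h the signal lay above the curve by 0.51 log2 units in GH9C2, 0.71 in GH9B8 and 0.54 in TBL36. Misfit of the curve and a deviation of that 1 array cannot be told apart, so the residual spread may hold misfit as well as scatter.

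At 2 h all 3 transcripts had lower signals than at 0 h, the sample taken directly after the wash. GH9B8 stood at 19.6 at 2 h, against 51.6 at 0 h, a difference of -1.39 log2 units. TBL36 stood at 327 at 2 h, against 756 at 0 h, a difference of -1.21. GH9C2 stood at 141 at 2 h, against 274 at 0 h, a difference of -0.96. The 2 h signal was lower by at least 1 log2 unit in 2 of the 3 genes, and in 6.97% of all tested probe sets. These counts hold for the scale with the floor. With a pseudocount of 16 in its place, these signals leave TBL36 lower by more than 1 log2 unit, and GH9B8 by less than 1. The share of all tested probe sets was not repeated with the pseudocount. The pseudocount lowered the range of GH9B8 from 2.37 to 1.72 log2 units. The signals at 4 h were close to those at 2 h, with differences of -0.03 for GH9C2, 0.27 for GH9B8 and -0.25 for TBL36. The array at 2 h had the lowest mean correlation with the other arrays, 0.931 against 0.955 to 0.969, and the lowest median signal, 35.2 against 37.8 to 43.9. The mean correlation of the 4 h array was 0.961. Leaf photosynthesis markers, of which 3 of 17 listed genes were named on the array, had their lowest summed signal at 2 h, 157, and their highest at 8 h, 471, and none of the 3 was under the floor at all times. The part of these markers and of the 2 h array in the result was not tested. In bulk samples, a lower level in all cells and fewer cells with the transcript cannot be told apart.

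Between 4 h and 6 h the signal of each gene was more than doubled. TBL36 stood at 702 at 6 h, against 275.5 at 4 h, which is 2.55-fold or 1.35 log2 units. GH9B8 stood at 49.4 at 6 h, against 23.7 at 4 h, which is 2.09-fold or 1.06 log2 units. GH9C2 stood at 278 at 6 h, against 138 at 4 h, which is 2.01-fold or 1.01 log2 units. All 3 genes thus had a difference of at least 1 log2 unit in this interval with the floor for low signals, GH9C2 and GH9B8 narrowly. Such a difference was found in 2.19% of all tested probe sets, with a median difference over all tested of 0.04. With a pseudocount of 16 in place of the floor, these signals give TBL36 a difference above 1 log2 unit, and GH9C2 and GH9B8 less than 1. The share of all tested probe sets was not repeated with the pseudocount. The step compares 1 array with 1 array and has no replicate check. The lowest of the 7 signals from 6 h to 19 h was 1.95-fold the higher of the signals at 2 h and 4 h in GH9C2, 1.53-fold in GH9B8 and 2.14-fold in TBL36. In all tested probe sets, 2 h and 4 h were the lowest of the 10 times in 7.82%. After the step the levels at 6 h were near those at 0 h, at 1.02-fold the 0 h signal in GH9C2, 0.958-fold in GH9B8 and 0.929-fold in TBL36.

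**Figure D2:**
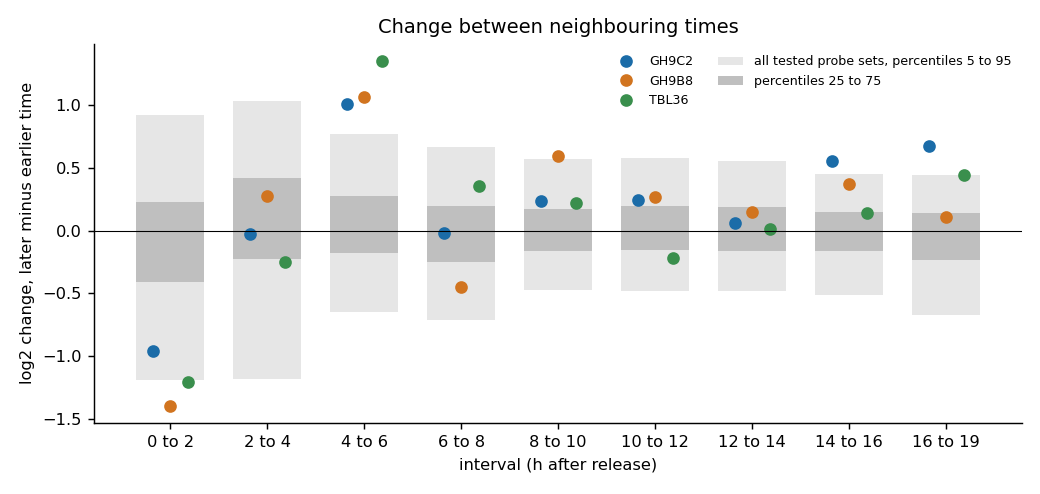
Log2 change between neighbouring times (vertical axis, later minus earlier time) for each interval (horizontal axis), with 1 array at each time. Coloured points are GH9C2, GH9B8 and TBL36, and the light and dark bars span percentiles 5 to 95 and 25 to 75 of all 13647 tested probe sets. From 4 h to 6 h all 3 points, at 1.01, 1.06 and 1.35, lie above the light bar. Other points outside it are GH9B8 and TBL36 from 0 h to 2 h, below it, and GH9B8 from 8 h to 10 h, GH9C2 from 14 h to 16 h, and GH9C2 and TBL36 from 16 h to 19 h, above it.

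In the later hours the signals of the 3 genes took different courses, and the differences between them were not tested. GH9C2 had its largest differences among the later intervals at the end, 0.55 log2 units at 16 h over 14 h and 0.68 at 19 h over 16 h, and its signal at 19 h was 2.45-fold that at 12 h. GH9B8 was higher at each sampling from 10 h on, and its signal at 19 h was 1.55-fold that at 12 h and 1.08-fold that at 16 h. TBL36 had no such trend between 8 h and 16 h, and its signal at 19 h was 1.51-fold that at 12 h. Relative to 0 h, the signal at 19 h was 3.43-fold in GH9C2, 1.97-fold in GH9B8 and 1.80-fold in TBL36. A probe set highest at 19 h was found in 9.42% of all tested.

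Expressed over windows of neighbouring times, GH9C2 averaged 7.45 ± 0.56 on the log2 scale at 0 to 4 h (SD, n = 3 times), 8.29 ± 0.23 at 6 to 12 h (n = 4) and 9.24 ± 0.62 at 14 to 19 h (n = 3). GH9B8 averaged 4.85 ± 0.74, 5.66 ± 0.36 and 6.47 ± 0.25 in the same windows. TBL36 averaged 8.67 ± 0.78, 9.78 ± 0.24 and 10.07 ± 0.31. The late mean minus the middle mean was 0.95 in GH9C2 and 0.82 in GH9B8 but 0.29 in TBL36, while the middle mean minus the early mean was 1.105 in TBL36, 0.84 in GH9C2 and 0.80 in GH9B8. The windows of GH9C2 and GH9B8 differed by about as much in each step, and TBL36 held most of its difference in the earlier step. The standard errors of these differences in the limma fit were 0.30, 0.32 and 0.30 for GH9C2, GH9B8 and TBL36 in either step, so the differences between the genes were of the order of their error and were not tested.

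AUR1, an Aurora kinase of dividing cells used here as a marker of the time of mitosis, reached its highest signal, 555, at 10 h, with 76.2 at 4 h and 203 by 19 h. The highest times of AUR1 and of the 3 wall genes thus differed. At 10 h, when AUR1 was highest, GH9C2 stood at 324 and GH9B8 at 54.7, below their values at every later time, while TBL36 stood at 1049, its highest value before 19 h. Of the 10 listed markers of dividing cells, 9 were named on the array, and their summed signal was lowest at 4 h with 355 and highest at 10 h with 2643.

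Over the 10 times, Pearson's r of log2 signal was 0.95 between GH9C2 and GH9B8, 0.90 between GH9C2 and TBL36, and 0.89 between GH9B8 and TBL36, with Spearman's rho of 0.95, 0.89 and 0.88. The points share their arrays and come from neighbouring times of 1 culture, so they are not independent. Without the 2 h and 4 h arrays, r was 0.91 between the endoglucanases, 0.84 between GH9C2 and TBL36 and 0.64 between GH9B8 and TBL36. Among all tested probe sets ranked by likeness to GH9C2, GH9B8 held place 5 and TBL36 place 63. In the ranking by likeness to GH9B8, GH9C2 held place 19 and TBL36 place 108, and in that by likeness to TBL36, GH9C2 held place 65 and GH9B8 place 79. An r over 0.9 with GH9C2 was found in 0.432% of the other tested probe sets, with GH9B8 in 0.623% and with TBL36 in 0.425%.

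Of 1022 other tested probe sets whose gene has a symbol of its own, EXPB3, a beta-expansin, was the most like both endoglucanases, with r of 0.97 with GH9C2 and 0.98 with GH9B8. Expansins loosen the wall without cutting its polymers. The signal of EXPB3 was 59.1 at 2 h, 154 by 10 h and 401 by 19 h. EXPA15, an alpha-expansin, followed with r of 0.93 with GH9C2 and 0.94 with GH9B8, with signals of 46.3 (2 h), 113 (10 h) and 243 (19 h). The next genes for GH9C2 were NDB4, a mitochondrial NAD(P)H dehydrogenase (r = 0.91), FEY (0.89) and IGPD, an enzyme of histidine synthesis (0.89). For GH9B8 they were IGPD (0.97), CPI1, an enzyme of sterol synthesis (0.93), and UNG, a uracil DNA glycosylase (0.93). For TBL36 the 5 most alike were NDC1, an NAD(P)H dehydrogenase (0.95), UNG (0.94), PR-1-LIKE (0.93), MTP11, a manganese transporter (0.92), and scpl42, a carboxypeptidase-like protein (0.91), with no expansin among them. Among the same 1022, the gene with the most opposite course to GH9C2 and GH9B8 was HON4, a linker histone-like protein, with r of -0.92 and -0.98. HON4 was also among the 3 most opposite to TBL36 (-0.92) with signals of 492 (2 h), 209 (10 h) and 165 (19 h). The others were DPL1, a sphingolipid lyase (-0.89), and APS4, an ATP sulfurylase (-0.90), for GH9C2. For GH9B8 they were the autophagy gene APG8H (-0.90) and UBC32, a ubiquitin-conjugating enzyme (-0.90), and for TBL36 they were ATMDAR2, a monodehydroascorbate reductase (-0.91), and PYE, a regulator of the iron deficiency response (-0.93).

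**Figure D3:**
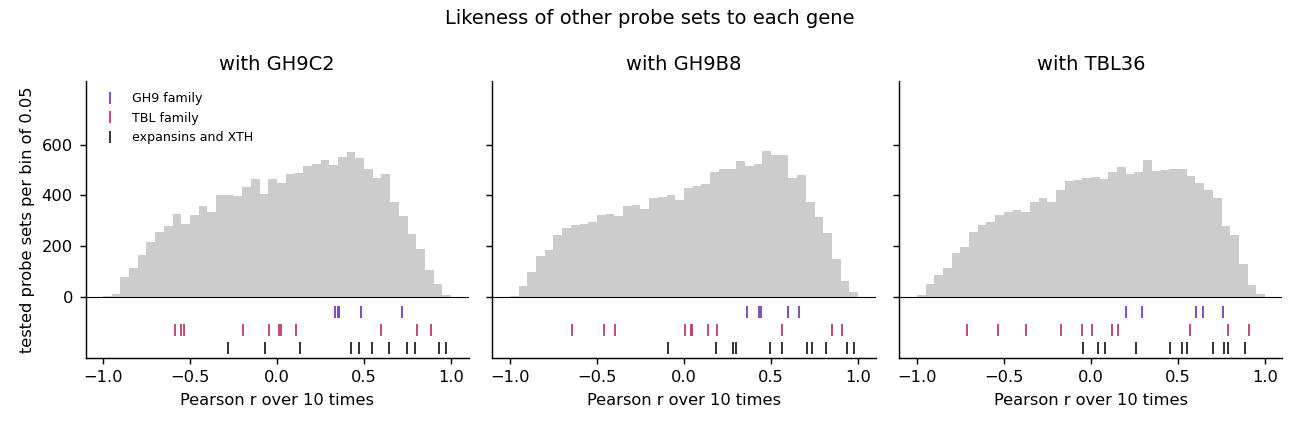
Pearson's r over 10 times between each of the 3 genes and all other tested probe sets (horizontal axis), counted in bins of 0.05 (vertical axis, grey bars). Ticks under the bars mark other GH9 genes, other TBL genes, and expansins and XTH enzymes, each list in its own row. The 5 other GH9 genes lie at r above 0 in every panel, up to 0.76 with TBL36, and the TBL genes spread from -0.71 to 0.91.

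The other GH9 endoglucanases named on the array did not share the full course. Of 13 others with a probe set of their own, 5 were tested and none was called in the time course, against 5.57% of all tested probe sets (limma). An unadjusted p under 0.05 was found in 1 of the 5, and in 3390 of all 13647 tested (limma). GH9B17, of class B, was the most like GH9C2 and TBL36 of these 5. It stood at 22.8, 32.1, 16.1, 33.3, 42.9, 34.5, 38.4, 41.2, 37.2 and 50.2 over the 10 times, with r of 0.72 with GH9C2, 0.60 with GH9B8 and 0.76 with TBL36 (adjusted p = 0.312 in the limma time course). It was also the 1 of these 5 with a difference of at least 1 log2 unit between 6 h and 4 h, narrowly, at 1.05. GH9A3, of the membrane-anchored class A, was the most like GH9B8 (r = 0.66) and had its lowest signal, 71.4, at 2 h and its highest, 187, at 6 h, and GH9B7 had its lowest, 136, at 4 h and its highest, 301, at 0 h. GH9C1, of the same class as GH9C2, stayed between 17.4 and 35.8, and GH9B12 between 20.7 and 39.9. Over these 5 genes the median difference between 6 h and 4 h was 0.82 log2 units, the middle mean was above the early mean in 5 of 5 with a median difference of 0.43, and the late mean was above the middle mean in 2 of 5. Over all tested probe sets the middle mean was above the early mean in 58.8%, with a median of 0.07. The late mean was above the middle mean in 52.7% of them. Their median difference between 6 h and 4 h was 0.04, and 2.19% were higher by at least 1 log2 unit at 6 h. The remaining 8, GH9A4, GH9B5, GH9B6, GH9B11, GH9B13, GH9B16, GH9B18 and GH9C3, had mean signals between 1.89 and 24.7, under the 26.8 needed to be tested.

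Among the TBL family, 11 of 23 other probe sets were tested. None was called in the time course, against 5.57% of all tested probe sets (limma). An unadjusted p under 0.05 was found in 1 of the 11, and in 3390 of all 13647 tested (limma). TBL39 was the member whose course was most like that of TBL36, with r of 0.91, and it also had r of 0.88 with GH9C2 and 0.91 with GH9B8. Its signals were 1067, 433, 422, 680, 739, 769, 824, 915, 954 and 1216 over the 10 times, so that it too was lowest at 2 h and 4 h and highest at 19 h. Its adjusted p in the limma time course was 0.0735, so it was not called. Among the alternatives it was called with 5 spline terms (limma, 0.0225) and on leaving out the array at 0 h (0.00179), that at 2 h (0.047) or both (0.00157). It was not called in the other alternatives. In these 4 settings the calls over all tested probe sets were 594, 2901, 1844 and 1231, in place of 760. TBL18 had r of 0.78 with TBL36 but a narrow course, from 44.2 at 4 h to 74.2 at 14 h. TBL16 ran opposite to TBL36 (r = -0.71) and had 174 at 4 h, its highest, and 113 at 0 h, its lowest. TBL37 had 77.9 at 0 h, its highest, and 17.2 at 4 h, its lowest, and the 2 probe sets of TBL40 (AT2G31110) were also highest at 0 h, with 90.1 and 104. TBL23, TBL25, TBL26, TBL32 and TBL35 had ranges of 0.77 to 0.91 log2 units. The middle mean was above the early mean in 3 of these 11, with a median difference of -0.15, against 58.8% and 0.07 over all tested. The remaining 12, TBL15, TBL19, TBL20, TBL21, TBL28, TBL30, TBL34, TBL38, TBL41, TBL42, TBL43 and TBL45, had mean signals from 1.03 to 18.8.

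**Figure D4:**
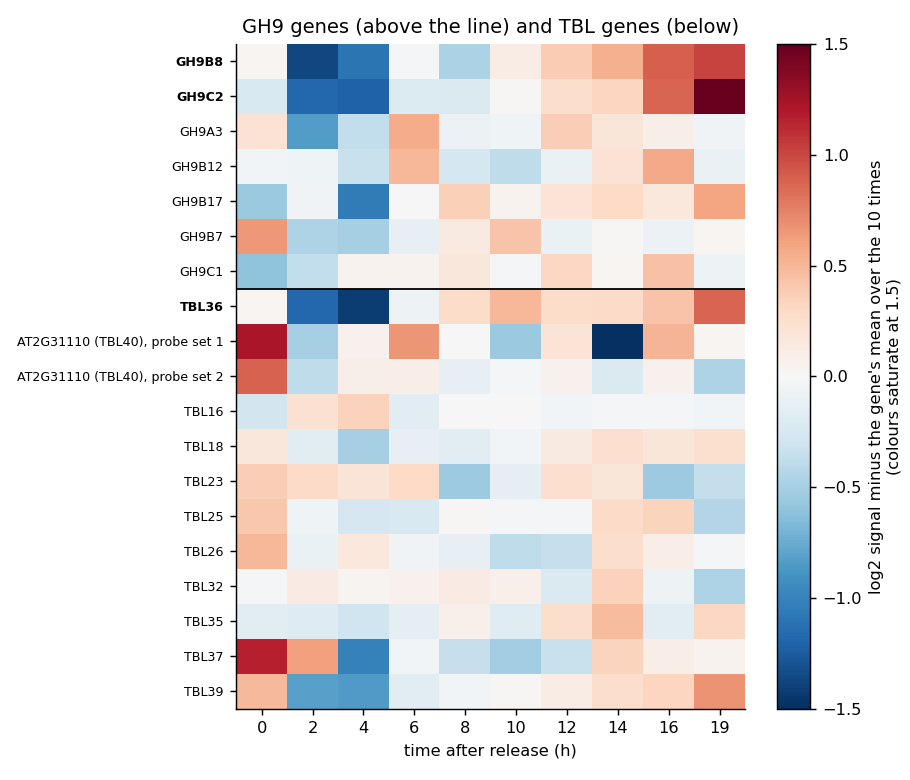
Log2 signal minus the mean of the same probe set over the 10 times (colour, red above and blue below, saturating at 1.5) for the tested GH9 genes above the line and TBL genes below it, at each time (horizontal axis). GH9B8, GH9C2 and TBL36 are in bold. The colours at 2 h and 4 h are the bluest and that at 19 h the reddest of their row in these 3 genes and in TBL39.

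In all, 38 of 80 other wall probe sets listed by name were tested, and 3 were called in the time course, 7.89% against 5.57% of all tested. These were EXPA15 (adjusted p = 0.0104), XTH20, a xyloglucan-modifying enzyme (0.0278), and EXPB3 (0.0443), by limma's time course test, and each was highest at 19 h. XTH20 differed from the endoglucanases early on: its signal was 75, 77.5, 58.2 and 61.9 at 0, 2, 4 and 10 h, and 133, 148 and 163 at 14, 16 and 19 h. COB, a membrane-anchored protein needed for oriented cellulose deposition, and ATPMEPCRB, a pectin methylesterase, were the single tested genes of the lists of cellulose synthesis and pectin modification. Neither was called (limma, adjusted p of 0.883 and 0.308). COB was the 1 probe set found by name for cellulose synthesis, and KORRIGAN was not found by name, so cellulose synthesis was hardly covered. The 3 calls became 12 when the array at 0 h was left out and 10 when that at 2 h was, where the calls over all tested probe sets were 2901 and 1844 in place of 760. They became 1, EXPA15, without any 1 of the arrays at 8, 10, 12, 14, 16 or 19 h, where the calls over all tested were 236 to 401. None was called without the filter on mean signal (limma, adjusted p of 0.0688 for EXPA15, 0.0894 for XTH20 and 0.172 for EXPB3). In that setting 13 of the 80 wall probe sets had an unadjusted p under 0.05, against 4021 of all 22746 probe sets (limma).

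Between windows, none of the 38 was called in limma. In the late minus middle comparison, 0 of 13647 probe sets were called (686 at an unadjusted p under 0.05), and 5 of the 38, all higher, had an unadjusted p under 0.05. The late mean was above the middle mean in 27 of 38, with a median difference of 0.25 log2 units, against 52.7% and 0.01 over all tested. Expansins and XTH enzymes had 9 of 11 above 0 with a median of 0.59, enzymes of other wall polysaccharides, mostly CSLC glucan synthases, 7 of 9 with a median of 0.24, and the other TBL genes 7 of 11 with a median of 0.13. The other GH9 genes had 2 of 5 above 0. In the middle minus early comparison, 1.13% of all tested probe sets were called, 0.52% higher and 0.608% lower, and none of the 38. Of the 38, 2 higher and 1 lower had an unadjusted p under 0.05, against 2959 of all 13647 tested (limma). The difference was above 0 in 23 of 38 with a median of 0.06, against 58.8% and 0.07 over all tested. Leaving out the 0 h array gave 3 wall calls in this comparison, CSLC5, XTH19 and TBL39, or 7.89% of the 38, against 3.63% of all tested probe sets in that setting. Leaving out the 4 h array gave 1, TBL37, or 2.63%, against 13.7%.

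The full outline of the 3 genes, lowest at 2 h and 4 h and highest at 19 h, was found in 204 of 13647 tested probe sets, or 1.49%. Among the 38 other wall probe sets it was found in 4, which were EXPB3, EXPA15, TBL39 and CSLC5, a xyloglucan glucan synthase. Among the 1025 tested probe sets with a symbol of their own, wall genes included, 12 outside the wall lists had it. These genes were singled out after their values were seen, and had ranges from 0.50 to 2.85 log2 units. They were SKU5, a membrane-anchored protein of the wall (range 2.85), THE1, a receptor-like kinase that senses the state of the wall (2.61), rpl33, AARE, OS9, SIR, SETH5, ALDH22A1, SCN1, NDB4, PR-1-LIKE and MTP11.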

How the data were processed

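The deposited values are MAS5 intensity values, 1 per probe set and array on a linear scale, per the submitters' processing notes. No version of MAS5 is stated in the labels. The 2% trimmed means of the arrays lay between 99.3 and 99.4, so the deposited intensity values appear to have been scaled already. Here 64 control probe sets were left out and arrays were brought to a common trimmed mean of 100. Signals under the 25th percentile of all values, 12.1, were set to it before log2, and probe sets with a mean above the 40th percentile of means (26.8) were tested. Genes were named from the platform annotation, with symbols from a RefSeq table (TAIR10.1, names only): 13513 probe sets named 1 gene, 503 several, of which none was named from, and 8730 none. The 2 of these 503 that hold GH9 or TBL genes were left out. R 4.3.3 and limma 3.58.1 were used, with lmFit and eBayes with a mean trend, and adjusted p under 0.05 was called. Windows were 0 to 4, 6 to 12 and 14 to 19 h. Samples of a window are different times of 1 culture, so the spread between these samples is all that p-values measure, and the number of arrays limits the precision. The fits were tested on simulated data. Likeness was Pearson's r of log2 signal, giving the 5 highest and 3 lowest genes. Named genes were the 3 genes, the called members of the wall lists, all GH9 and TBL genes, those likeness picked, and AUR1. Outside this rule, COB, ATPMEPCRB, the wall genes called in an alternative and the genes sharing the outline of the 3 were named after their values were seen. The 3 genes and the lists were chosen with earlier results of these data known. Promoter and protein sequences were not used here. Alternatives tried were the filter, a pseudocount of 16, quantile normalization, no mean trend, 3 or 5 spline terms, other window edges and leaving out arrays.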

Additional observations from a re-analysis of the deposited data

How the results depend on the processing

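The range of GH9C2 and TBL36 moved by less than their residual SD under the pseudocount, quantile normalization and the removal of the 0 h and 2 h arrays. That of GH9B8 was 1.72 log2 units with log2(signal + 16) in place of the floor, against 2.37. Leaving out 1 array at a time gave 2.09 to 2.76 for GH9C2, 2.1 to 2.37 for GH9B8 and 1.93 to 2.31 for TBL36, lowest without 19 h for GH9C2 and TBL36 and without 2 h for GH9B8. The 760 calls of the time course were 281 without the filter, 462 without a mean trend, 1231 without the 0 h and 2 h arrays and 236 to 2901 with 1 array left out. The 3 wall calls were 0 without the filter, 10 without the 0 h and 2 h arrays and 1 to 12 with 1 array left out. Without the filter, 13 of the 80 wall probe sets had an unadjusted p under 0.05, against 4021 of all 22746 probe sets (limma). Of 18 alternatives, EXPA15 was called in 17, XTH20 in 11 and EXPB3 in 8. For middle minus early, the 154 calls were 0 without the filter (limma; 3287 at an unadjusted p under 0.05), 71 without a mean trend, 263 with the filter at the 60th percentile, 40 with 6 h and 12 h moved to the outer windows, 92 without the 0 h and 2 h arrays and 0 to 1863 with 1 array left out, and the 0 wall calls were 0 to 3. Late minus middle had 0 calls in every alternative run (limma; 409 to 1445 at an unadjusted p under 0.05). The causes of these moves were not tested. No paired analysis was possible because each time had 1 sample. Low signal kept 42 of the 80 other wall probe sets out of the tests, and wall genes not found by name were not counted.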
